A study of Oncorhynchus mykiss with 32 samples.

Results

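The response of the liver of lean-line rainbow trout (Oncorhynchus mykiss) to a high-energy diet is described here. It rests on 16 of the 32 livers of the study, namely the 8 livers labelled L-HE and the 8 labelled L-LE. L-HE fish belonged to the lean line (L), obtained by selection for low muscle fat over 3 generations, and received from first feeding, for 6 months, the high-energy diet (HE) with 23% lipid, which held added fish oil. L-LE fish belonged to the same line and received for the same time the low-energy diet (LE) with 10% lipid. The HE diet also held less protein and less starch and had a higher ratio of n-3 to n-6 fatty acids. These parts of the diet difference cannot be told apart. Each diet was given to 3 tanks, and livers were taken a day after the last meal. The number after the group name in each condition label was taken as the tank, which that label does not state. The fat line (F), selected in the opposite direction, is used only to ask whether the diet difference of the lean line differed from that of the other line. Each liver was hybridized to 1 nylon membrane spotted with 9023 trout cDNA clones, and each value is a level on the log2 scale relative to the median of its array, so that a level of 0 is that median. A difference of 1 is a 2-fold difference in signal. Levels of different clones are not compared, since the signal of a clone depends on its spot and probe.

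Liver is the main site where fish turn dietary carbon into fatty acids and sterols, pack lipids into plasma lipoproteins and oxidize what is not exported. Genes of sterol synthesis and of fatty acid desaturation are under transcriptional control by cellular sterol and polyunsaturated fatty acid. NADPH for fatty acid and sterol synthesis comes in part from the pentose phosphate pathway. Trout keep little fat in the liver itself and much of it in muscle and around the viscera. In bulk liver a lower level can come from fewer cells of one type or from less RNA per cell, which cannot be told apart.

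Of the 9023 clones, 7792 had at least 5 values in both groups and were tested by limma. The arrays held 7796 to 8134 measured clones (median 7847) in L-HE and 7654 to 8025 (median 7836) in L-LE, and every water spot was without a value. The L-LE arrays on membranes 53, 56 and 68 stood apart from the other 13. Their interquartile range over the clones was 1.62 to 1.93 on the log2 scale, against 2.09 to 2.55, and their median Spearman correlation with the rest of the lean-line arrays was 0.857 to 0.896, against 0.901 to 0.958. These 3 arrays hold the whole of L-LE tank 2 (membranes 53 and 56) and 1 liver of tank 1, so that results without them rest on 2 L-LE tanks. Over all arrays the interquartile range was 2.31 to 2.55 in L-HE and 1.62 to 2.49 in L-LE (two-sided exact permutation test over 16 arrays, p = 0.0559). Between L-LE livers the median SD of a clone was 0.412, against 0.281 between L-HE livers, and it was 0.296 in L-LE without the 3 arrays. Results are therefore given with and without them.

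**Figure D1:**
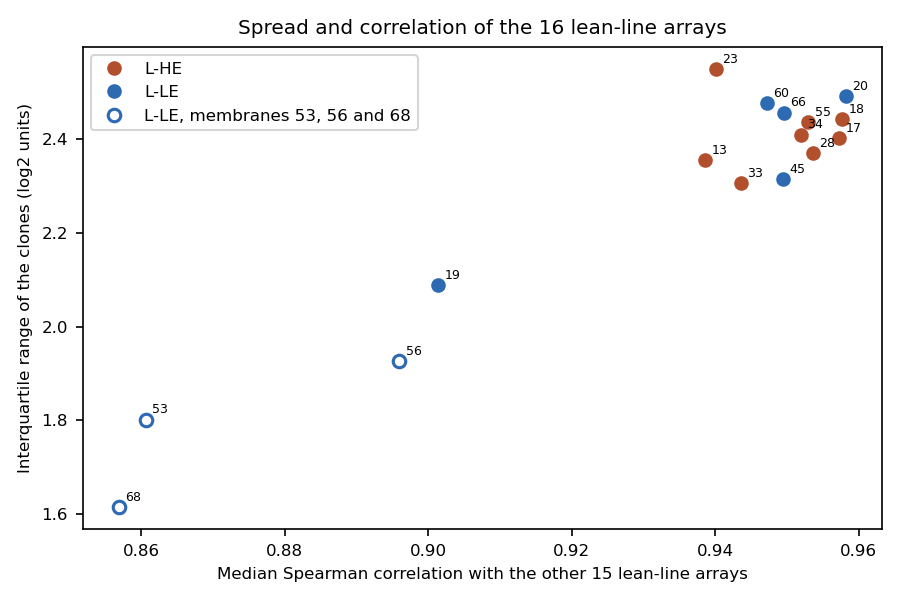
Interquartile range of the clones on each array (log2 units) against the median Spearman correlation of that array with the others of the lean line, 1 point per liver with its membrane number, L-HE in red and L-LE in blue. The open points, L-LE membranes 53, 56 and 68, lie at 1.62 to 1.93 and 0.857 to 0.896, below the other 13 arrays on both axes.

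Marker clones were summed on each array to set the diet groups side by side. The sums cannot identify the tissue, since levels of different clones are not compared. The 9 clones of 8 liver plasma proteins, among them complement C3, transthyretin and plasminogen, had a summed level of 8.00 to 8.76 in L-HE and 7.95 to 8.64 in L-LE. Singly, 3 of them were lower and 6 higher in L-HE, with differences from -0.67 (complement C3) to 0.67 (apolipoprotein A-I-1). Muscle markers (4 clones) had 4.88 to 5.40 in L-HE and 5.19 to 5.44 in L-LE. Red blood cell markers (3 clones) had 3.21 to 3.97 in L-HE and 2.48 to 3.84 in L-LE. None of these 16 clones passed the test with 16 arrays or with 13, without the 3 L-LE arrays. The red cell marker ERMAP passed with 13 arrays and weights per array (-1.01, limma adjusted p = 0.0827). An unplanned fit of 12 arrays, without L-LE membrane 45 too, gave -1.12 (adjusted p = 0.00629). With 13 arrays all 4 muscle markers were lower in L-HE (median -0.30, 2 under an unadjusted p of 0.05). Lower too were 7 of 9 liver clones (median -0.05) and 2 of 3 red cell clones (median -0.08). The part of muscle or blood RNA in the results below was not tested.

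In the livers of L-HE fish 2 clones of 7792 passed at an adjusted p under 0.15 (limma, Benjamini-Hochberg), which is 0.0257% of those tested. The clone tcba0009.c.23 rose, and leukocyte cell-derived chemotaxin 2 (LECT2) fell. Protein names were at hand only for clones in the study's lists, which do not hold tcba0009.c.23, so its identity was not looked up. The paper reports that glucokinase gene expression was particularly high in L-HE fish. No clone in those lists carries that name, and whether tcba0009.c.23 stands for it was not tested. Without membranes 53, 56 and 68, 1 clone of 7791 passed (0.0128%), and it was neither tcba0009.c.23 nor LECT2. It was tcag0001.a.09, which fell. The study had already listed that clone, without a protein name, among those that responded to diet. LECT2 was in the same list, so neither call is independent of it. A far larger number of clones lay under an unadjusted p of 0.05 with 16 arrays, 541 lower in L-HE (6.94%) and 330 higher (4.24%), a total of 871 where a rate of 0.05 gives 389.6. With 13 arrays these numbers were 214 lower (2.75%) and 92 higher (1.18%), a total of 306, which is below the 389.6 of the same rate. Leaving out 1 array also moved the count of clones that passed: it was 40 (35 lower and 5 higher) without L-LE membrane 20, 5 without L-LE membrane 45, 4 without L-HE membrane 17, 3 without L-LE membrane 66, and 1 without L-LE membrane 56, 53 or 19 or L-HE membrane 55, 34, 33, 23 or 13. Among the 40 were 12 named clones, LECT2, ACES, Y041, GDF8, STUB1, RM40, TMM11, 6PGD, UBE2B, NUP53, MAPK5 and FABG. Of all 7792 clones tested 284 had a name, taken from the study's lists of clones it had called.

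The largest difference of the clones tested belonged to tcba0009.c.23. Its lowest, median and highest levels were 0.21, 1.69 and 3.81 in L-HE and -2.29, -1.25 and -0.16 in L-LE. Every L-HE liver thus lay above every L-LE liver, and all 8 L-LE livers were below the array median. Means were 1.5 ± 1.18 in L-HE and -1.27 ± 0.736 in L-LE (SD, n = 8 livers each), a log2 difference of 2.76 (standard error 0.43, 6.79-fold higher, limma adjusted p = 0.0272). The two-sided exact permutation test over livers gave p = 0.000155, the smallest that 12870 arrangements can give, for a clone chosen for its small p. By tank the means were 1.06, 1.34 and 1.94 in L-HE and -1.84, -0.88 and -0.95 in L-LE, which do not overlap either (3 tanks against 3 cannot give an exact p under 0.1). Without the 3 L-LE arrays the difference was 2.92 with an adjusted p of 0.162. Over 31 arrays, with a mean for each group, the fat line had a difference of -1.15 for this clone (unadjusted p = 0.0531), and the test of line by diet, 3.91 with an adjusted p of 0.195, did not pass.

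LECT2 is a protein secreted by hepatocytes that acts on neutrophils and other immune cells. Its lowest, median and highest levels were 2.87, 3.96 and 4.94 in L-HE, against 4.41, 5.78 and 6.30 in L-LE. Only L-LE membrane 68, at 4.41, fell among the L-HE livers, and the other L-LE livers were at 4.99 or more. The means were 3.91 ± 0.709 in L-HE and 5.58 ± 0.66 in L-LE (SD, n = 8 livers each), and with a log2 difference of -1.66 (standard error 0.306) LECT2 fell 3.17-fold (adjusted p = 0.115). Tank means were 4.41, 4.03 and 3.47 in L-HE, all below the 5.08, 6.22 and 5.64 of L-LE, but the call was lost with tank as a random block (adjusted p = 0.284) and in a fit of the tank means (adjusted p = 0.561). In the fat line the difference was -0.17, and the interaction over 31 arrays, -1.49 with an adjusted p of 0.811, did not pass. The call was lost without any 1 of 9 arrays, L-LE membranes 60, 56, 53 and 19 and L-HE membranes 55, 34, 33, 23 and 13 (adjusted p from 0.177 to 0.368), and without L-LE membranes 53, 56 and 68 together the difference was -1.64 (adjusted p = 0.217).

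The clone tcag0001.a.09 had levels of 3.71 to 4.46 in L-HE and 3.63 to 5.60 in L-LE. Without membranes 53 (3.92), 56 (5.00) and 68 (3.63), the L-LE livers lay at 4.69 to 5.60, all above L-HE. Its difference was -1.05 in that fit (adjusted p = 0.053) and -0.70 with 16 arrays (adjusted p = 0.439). It was named here after its values had been seen.

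**Figure D2:**
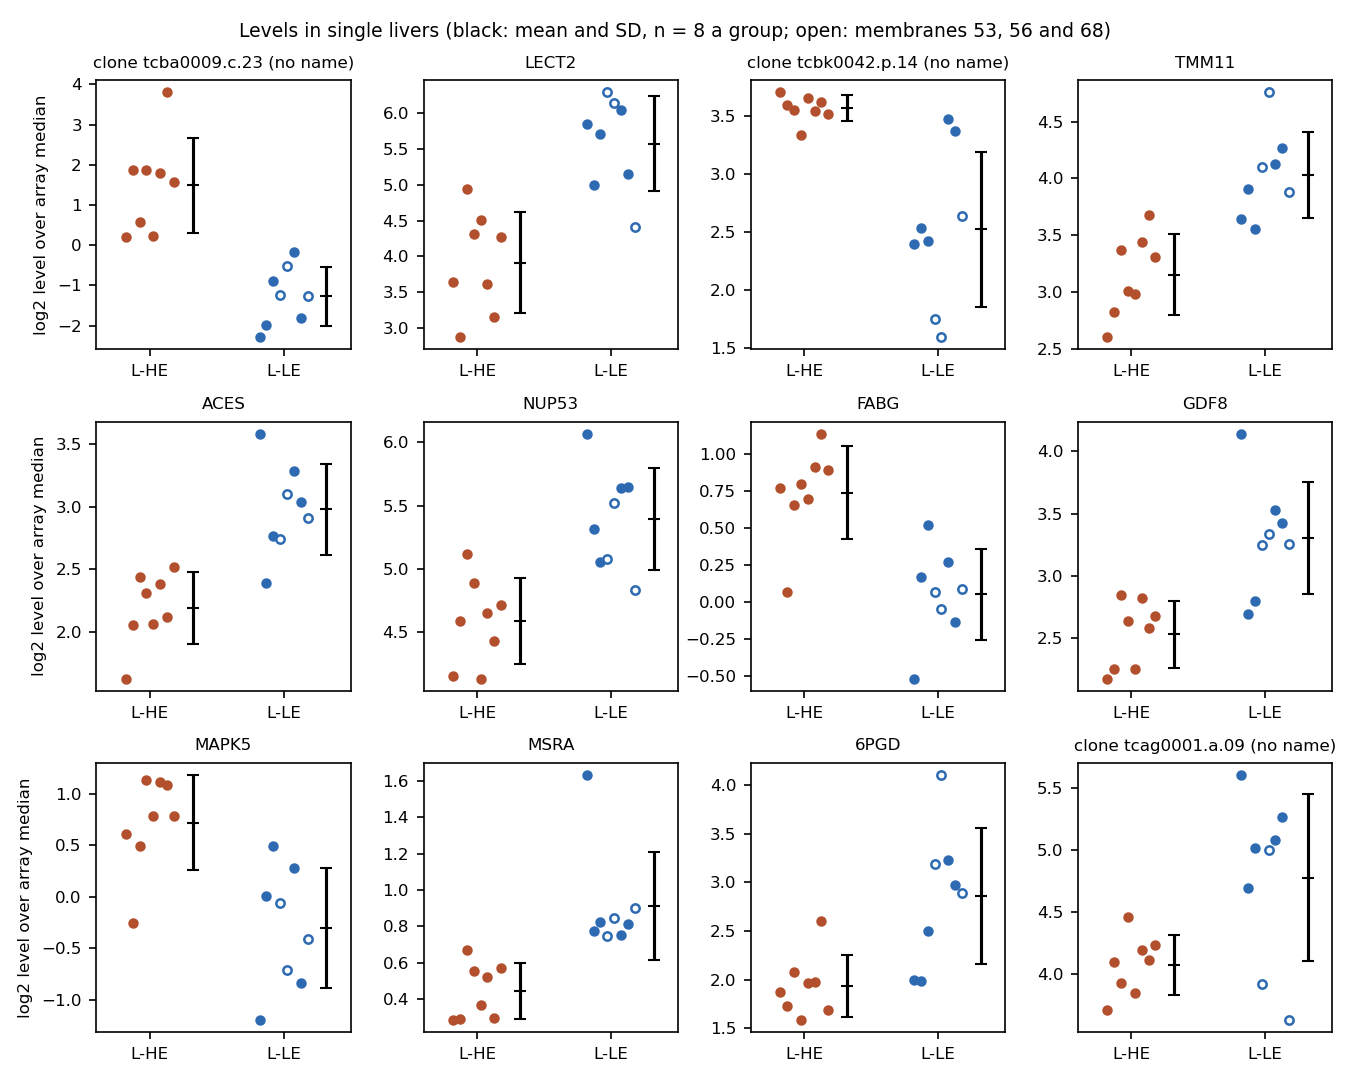
Levels of 12 clones in single livers (log2 over the array median, 1 panel per clone with its own axis), L-HE in red left of L-LE in blue, open points for membranes 53, 56 and 68 and black bars for mean and SD (n = 8 livers a group). The groups are apart for tcba0009.c.23 (0.21 to 3.81 in L-HE, -2.29 to -0.16 in L-LE) and MSRA (0.28 to 0.67 in L-HE, 0.75 to 1.63 in L-LE) and share part of their range in the other panels.

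How the clones differed between diets moved with their level. With 16 arrays the 1948 dimmest clones had a median difference of -0.24, with 332 clones lower in L-HE and 0 higher at an unadjusted p under 0.05, and the 1948 brightest had a median of 0.20, with 53 lower and 235 higher. In between, the dimmer 1948 clones had a median of -0.07 (117 lower, 16 higher) and the brighter 1948 a median of 0.08 (39 lower, 79 higher). With 13 arrays the 4 medians ran between -0.06 and 0.01, and the brightest group then held 90 clones that were lower and 46 that were higher, against 40 and 3 in the dimmest. Over all clones tested the median difference was -0.01 with 16 arrays and -0.02 with 13.

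**Figure D3:**
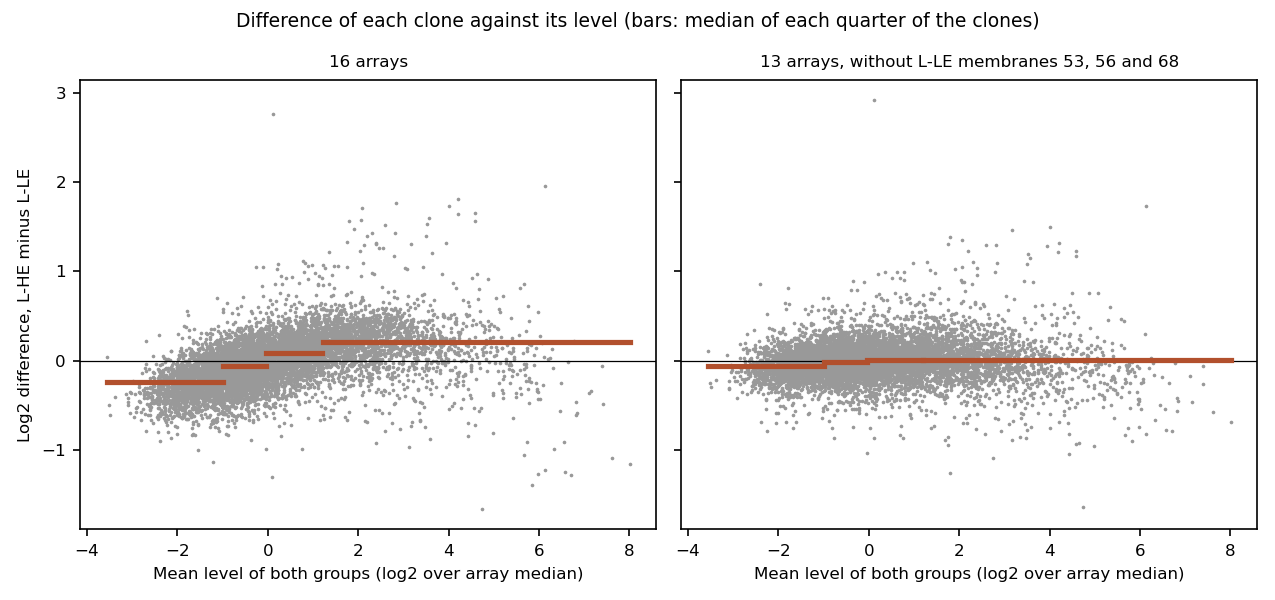
Difference between L-HE and L-LE (log2) of each clone against its mean level over both groups, with 16 arrays (left) and without L-LE membranes 53, 56 and 68 (right). Red bars give the median of each group of 1948 clones ordered by level, which runs from -0.24 to 0.20 with 16 arrays and stays between -0.06 and 0.01 with 13.

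Protein names were taken from the study's lists of clones it had found to respond to diet or to differ between lines, and 284 of the tested clones had such a name. Since these lists were drawn up on livers of the same study, they are not independent evidence of a direction. Of the 284 clones 181 had a lower and 103 a higher mean in L-HE, with a median difference of -0.12 (-0.21 with 13 arrays), against 4019 lower and 3773 higher of all 7792. At an unadjusted p under 0.05, 51 were lower and 15 higher (6.94% and 4.24% over all clones), and with 13 arrays 79 and 14 (2.75% and 1.18%). The shares over all clones moved with level with 16 arrays, and here and below they were not matched to the level of the members. The 151 names from the diet list had a median of -0.21 and the 133 found only in the line list -0.02. At an unadjusted p under 0.05, 45 of the 151 were lower and 12 higher, and with 13 arrays 76 and 14. Of the 133 these numbers were 6 and 3, and with 13 arrays 3 and 0. For members from the diet list, the shares over all clones are therefore no measure of enrichment. LECT2 is the only named clone that passed with 16 arrays, so for the genes that follow values are given and no change is claimed.

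Sterol synthesis was represented by 5 clones, all from the diet list, and each had a lower mean in L-HE, with a median difference of -0.51 (-0.73 with 13 arrays). None passed the adjusted test with 16 or with 13 arrays, although ERG28 passed with 13 arrays and weights per array (-0.97, adjusted p = 0.0827). It was 1 of 12 clones that passed there, 10 of them named. The other named clones were ACBP, ERMAP, PI52B, PKHA5, KIF2A, NUP53, GMEB2, COMD6 and TMM11. ERG28 also passed with L-LE membrane 45 left out as well (-1.07, adjusted p = 0.0185). That fit of 12 arrays was 1 of 13 with an array left out, was not planned and gave the highest count of calls. At an unadjusted p under 0.05 there were 2 lower with 16 arrays and 5 lower with 13, where the background over all clones is 6.94% and 2.75%. Among the 151 named clones of the diet list, which holds all 5, 45 and 76 were lower at that p. Each of the 5 differences stayed below 0 under quantile normalization and under renewed centring of the arrays.

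At the start of the route, THIC, the cytosolic acetyl-CoA acetyltransferase that makes the first building block of mevalonate, had 0.71, 1.2 and 1.68 as lowest, median and highest level in L-HE and 1.18, 1.57 and 2.68 in L-LE. The ranges overlapped in 4 L-LE livers, and the difference was -0.56 (adjusted p = 0.439; -0.73 with 13 arrays). ERG25, the methylsterol oxidase that takes methyl groups off the sterol ring, had 2.91 to 3.66 in L-HE and 2.88 to 4.0 in L-LE, a difference of -0.20 (-0.37 with 13 arrays). ERG28, known from yeast as the scaffold that holds the demethylating enzymes together, had -0.54, -0.15 and 0.30 in L-HE and -1.35, 0.64 and 1.05 in L-LE. Its lowest L-LE value came from membrane 56. The difference was -0.51 with 16 arrays (unadjusted p = 0.0773) and -0.87 with 13 (adjusted p = 0.31), where the L-LE livers lay at -0.08 to 1.05.

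EBP, the sterol isomerase of the later steps, had 1.84 to 3.06 in L-HE and 1.69 to 3.21 in L-LE, with the L-HE range inside that of L-LE. Its difference was -0.19 (-0.45 with 13 arrays). DHC24, the reductase that closes one branch of the route by saturating the sterol side chain, had -1.75, -1.30 and -0.06 in L-HE and -1.19, -0.50 and 0.51 in L-LE, a difference of -0.61 (adjusted p = 0.439; -0.87 with 13 arrays). The overlap of the groups came from 3 L-HE and 6 L-LE livers. In the fat line the median difference of the same 5 clones was -1.07, and no interaction passed, with THIC at 0.51, ERG28 at 0.56, EBP at 0.48, DHC24 at 0.47 (adjusted p = 0.811 each) and ERG25 at 0.27 (adjusted p = 0.827).

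The clones of fatty acid binding, desaturation and oxidation numbered 10, for 8 proteins. Of these 8 were lower and 2 higher in L-HE, with a median difference of -0.32 both with 16 and with 13 arrays, and 4 lower and 1 higher lay under an unadjusted p of 0.05 in either fit (over all clones 6.94% lower and 4.24% higher with 16 arrays, 2.75% and 1.18% with 13). FADS, the delta-5/delta-6 desaturase that makes long polyunsaturated fatty acids, had 2.33, 2.66 and 3.75 in L-HE and 3.02, 3.59 and 4.08 in L-LE. The ranges shared 2 L-HE livers, on membranes 18 and 34, and 6 of the L-LE livers. The difference was -0.73 (standard error 0.212, adjusted p = 0.43), -0.89 with 13 arrays and -0.96 in the fat line.

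Binding proteins carry fatty acids and their CoA esters through the cytosol. Acyl-CoA-binding protein (ACBP) had 2 clones. The first, 1RT36I05_A_E03, had 3.93, 4.25 and 4.42 in L-HE and 3.73, 5.14 and 5.63 in L-LE, so that the L-HE livers lay close together (SD 0.157) and the L-LE livers were spread (SD 0.694). Only membranes 56 and 45 of L-LE fell within the L-HE range or below it, and the difference was -0.73 (adjusted p = 0.439; -0.94 with 13 arrays, adjusted p = 0.305). It passed with 13 arrays and weights per array (-0.97, adjusted p = 0.0827). With L-LE membrane 45 left out as well, which is one of the livers just named, it was -1.17 (adjusted p = 0.00629). That fit of 12 arrays was 1 of 13 with an array left out, was not planned and gave the highest count of calls, so its p is no support. The second ACBP clone, tcbk0030.c.13, was dim, at -2.81 to -1.97 in L-HE and -2.43 to -0.90 in L-LE, with a difference of -0.24 that was -0.09 with 13 arrays.

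Heart-type fatty acid-binding protein (FABPH) had 2 clones as well. In tcay0002.n.16 the levels were 3.71, 4.24 and 4.77 in L-HE and 4.17, 4.80 and 5.28 in L-LE, with a difference of -0.53 (-0.52 with 13 arrays). In tcav0002.b.06 they were 2.57, 2.66 and 2.82 in L-HE and 1.73, 3.06 and 4.03 in L-LE, with a difference of -0.39 (-0.65 with 13 arrays). In that clone the L-LE livers other than membrane 56 lay above the highest L-HE liver.

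Other clones of the list stand for enzymes that burn or activate fatty acids and acetate. ECHA, the mitochondrial trifunctional enzyme subunit of beta-oxidation, had 3.66 to 4.62 in L-HE and 3.82 to 4.69 in L-LE, a difference of -0.24 (-0.34 with 13 arrays, -0.62 in the fat line). ACS2L, a mitochondrial acetyl-CoA synthetase, had -2.58 to -1.91 in L-HE and -2.25 to -1.01 in L-LE, a difference of -0.47 (-0.30 with 13 arrays). Values close to 0 were found for NLTP, a sterol carrier protein with thiolase activity, at -0.04 (0.06 with 13 arrays) and for FABD, the malonyl transferase of mitochondrial fatty acid synthesis, at 0.08 (-0.01 with 13 arrays). FABG, a ketoacyl reductase of the same kind of synthesis, stood on the other side: its lowest, median and highest levels were 0.06, 0.78 and 1.14 in L-HE and -0.52, 0.08 and 0.52 in L-LE. Apart from L-HE membrane 17, at 0.06, each L-HE liver lay above the L-LE livers. The difference was 0.69 (standard error 0.161, 1.61-fold, adjusted p = 0.291; 0.68 with 13 arrays).

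**Figure D4:**
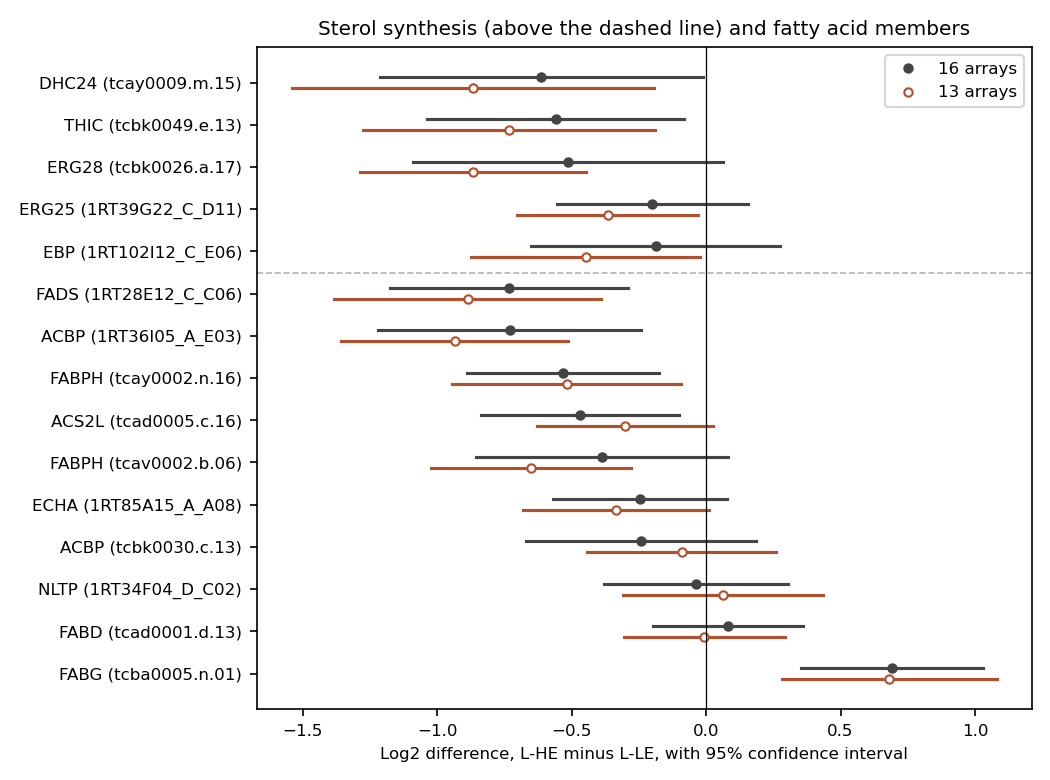
Log2 difference between L-HE and L-LE with its 95% confidence interval for the 5 sterol synthesis clones (above the dashed line) and the 10 fatty acid clones, with 16 arrays (filled) and with 13 (open). The sterol clones run from -0.61 to -0.19 with 16 arrays and from -0.87 to -0.37 with 13, and FABG, at 0.69 and 0.68, is the fatty acid clone farthest to the right.

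NADPH for fatty acid and sterol synthesis is made among others by 6PGD, the 6-phosphogluconate dehydrogenase of the pentose phosphate pathway. Its levels were 1.58, 1.92 and 2.60 in L-HE and 1.99, 2.94 and 4.10 in L-LE. The overlap came from L-LE membranes 19, 20 and 45 and L-HE membranes 18 and 34, and L-LE membrane 56, one of the 3 arrays, was the highest. The difference was -0.92 (standard error 0.249, 1.90-fold lower, adjusted p = 0.377), -0.60 with 13 arrays and -1.10 in the fat line. Over the 14 energy and NADPH clones 9 were lower and 5 higher, with a median of -0.13 (-0.32 with 13 arrays, where 13 were lower), and 1 lower lay under an unadjusted p of 0.05 (6.94% over all clones). Cytosolic malate dehydrogenase (MDHC), another member of this list, had a difference of 0.23 (0.04 with 13 arrays). ATP synthase subunit gamma (ATPG), which had 2 clones, had -0.36 in one and 0.08 in the other (-0.42 and -0.20 with 13 arrays).

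Plasma lipid transport had 5 clones, 2 lower and 3 higher in L-HE, with a median of 0.12 (0.01 with 13 arrays). That median is the value of ABCAC, an ATP-binding cassette transporter, and vitellogenin (VIT) had -0.17. Apolipoprotein A-I-1 (APA11), the main protein of high-density lipoprotein, had 3.42, 3.77 and 4.35 in L-HE and 2.06, 3.27 and 3.97 in L-LE. The ranges shared most of the L-HE livers, and the difference was 0.67 (adjusted p = 0.439; 0.47 with 13 arrays). AMNLS, an endocytic membrane protein that the study did not file under lipid, had a difference of 0.36 (0.25 with 13 arrays). Cholesteryl ester transfer protein (CETP), which moves esters between lipoproteins, had -0.30 (-0.47 with 13 arrays). Of the 6 phospholipid, sphingolipid and retinoid clones, 5 came from the diet list, in which 112 of 151 named clones were lower and 39 higher. All 6 were lower in L-HE, with a median of -0.27 (-0.24 with 13 arrays, 5 of them lower), and 1 lay under an unadjusted p of 0.05 (6.94% lower over all clones). Among these PI52B, a phosphatidylinositol phosphate kinase, had 0.20 to 0.67 in L-HE and -0.10 to 1.84 in L-LE, and its difference of -0.49 became -0.84 with 13 arrays (adjusted p = 0.305). PI52B passed with 13 arrays and weights per array (-0.94, adjusted p = 0.0827). PIGF, of glycolipid anchor synthesis, had -0.31 and the phosphodiesterase GDPD5 -0.33 (-0.23 and -0.61 with 13 arrays).

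Of amino acid and one-carbon enzymes 9 of 12 clones were lower and 3 higher, with a median of -0.14 (-0.21 with 13 arrays). The clone farthest from 0 in that list was ACES, acetylcholinesterase, which splits acetylcholine. It had 1.63, 2.21 and 2.52 in L-HE and 2.39, 2.97 and 3.58 in L-LE. Only L-LE membrane 20, at 2.39, lay among the L-HE livers. The difference was -0.79 (standard error 0.168, 1.73-fold lower, adjusted p = 0.251), -0.83 with 13 arrays and -0.79 in the fat line. Betaine homocysteine methyltransferase (BHMT), which remakes methionine, had a difference of 0.28 with 16 arrays and -0.08 with 13, and its interaction of 0.83 (adjusted p = 0.811) did not pass. DDAH1, which degrades methylated arginine, had 0.23 and the glutamate decarboxylase DCE1 -0.20 (0.10 and -0.28 with 13 arrays).

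Proteolysis had 18 clones, 12 lower and 6 higher, with a median of -0.15 (-0.19 with 13 arrays) and 5 lower and 3 higher under an unadjusted p of 0.05 (6.94% and 4.24% over all clones). STUB1, a ubiquitin ligase that works with chaperones, had 0.45, 0.89 and 1.05 in L-HE and 0.83, 1.5 and 2.10 in L-LE. L-LE membrane 20 was the one liver of its group within the L-HE range, and the difference was -0.66 (adjusted p = 0.377; -0.55 with 13 arrays). UBE2B, a ubiquitin-conjugating enzyme, was dim, at -2.23 to -1.90 in L-HE and -1.95 to -1.23 in L-LE, with a difference of -0.45 (-0.40 with 13 arrays). On the other side, thimet oligopeptidase (MEPD), which cleaves short peptides, had 1.19 to 2.06 in L-HE and 0.63 to 1.45 in L-LE, a difference of 0.61 (0.47 with 13 arrays), and the ubiquitin ligase IBRD2 a difference of 0.38 (0.27 with 13 arrays). The proteasome subunit PSB7 had -0.69 in 1 clone and -0.15 in another.

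In detoxification and oxidant defence 7 of 11 clones were lower and 4 higher, with a median of -0.21 (-0.19 with 13 arrays). Peptide methionine sulfoxide reductase (MSRA) repairs oxidized methionine in proteins. Its levels were 0.28, 0.44 and 0.67 in L-HE and 0.75, 0.82 and 1.63 in L-LE, so that the groups did not overlap. Of all clones tested 3 lay wholly below L-LE in this way (0.0385%) and 2 wholly above (0.0257%), and MSRA was the 1 with a name. Its difference was -0.47 (standard error 0.136, 1.38-fold lower, adjusted p = 0.43), -0.52 with 13 arrays. The cytochrome P450 CP2J2, an epoxygenase of arachidonic acid, had 2.45, 3.93 and 4.29 in L-HE and 0.03, 2.74 and 3.64 in L-LE. The L-LE livers were spread (SD 1.19) and 5 of them reached the L-HE range. The difference was 1.31 (standard error 0.413, 2.48-fold, adjusted p = 0.439), 1.47 with 13 arrays and 1.05 in the fat line. MRP4, an export pump for conjugates, had -0.25 (-0.24 with 13 arrays).

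Beside LECT2, the 15 other clones of plasma and immune proteins of liver did not pass, and 9 of the 16 were lower and 7 higher, with a median of -0.04 (-0.10 with 13 arrays). Complement C3 (CO3), the central protein of the complement cascade, had 2.41, 2.93 and 3.57 in L-HE and 3.06, 3.71 and 4.38 in L-LE. The groups overlapped in 3 L-HE and 4 L-LE livers, and the difference was -0.67 (adjusted p = 0.439; -0.64 with 13 arrays). CEBPD, a transcription factor of the acute phase, had a difference of -0.39 (-0.44 with 13 arrays). The cytokine IL17D had -0.18 to 2.83 in L-HE and 1.18 to 3.25 in L-LE, a difference of -0.67 (-0.95 with 13 arrays). The 2 clones of the plasma protein ITIH2 had 0.15 and -0.11.

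Signalling was represented by 10 clones, 7 lower and 3 higher, with a median of -0.23 (-0.40 with 13 arrays). GDF8, myostatin, is known as an inhibitor of muscle growth. It had 2.18, 2.61 and 2.85 in L-HE and 2.70, 3.30 and 4.14 in L-LE. L-LE membranes 20 and 45 lay within the L-HE range, and the difference was -0.77 (standard error 0.182, adjusted p = 0.291), -0.79 with 13 arrays and -0.70 in the fat line. GPR4, a receptor that senses protons, had a difference of -0.69 (-0.70 with 13 arrays). MAPK5, a stress-activated kinase downstream of MAP kinases, had -0.25, 0.79 and 1.14 in L-HE and -1.2, -0.23 and 0.49 in L-LE. L-HE membrane 17, at -0.25, was the one L-HE liver among the L-LE livers. The difference was 1.03 (standard error 0.243, 2.04-fold, adjusted p = 0.291), 0.97 with 13 arrays and 0.74 in the fat line.

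DNA replication and cell cycle (10 clones) had 5 lower and 5 higher, with a median of -0.01 (-0.22 with 13 arrays and 0.02 after quantile normalization). ATM, a kinase of the DNA damage response, had 1.39 to 2.02 in L-HE and 0.96 to 1.62 in L-LE, a difference of 0.46 (0.48 with 13 arrays), while DNA primase subunit PRI1 and the centriole kinase PLK4 had -0.54 each. Membrane traffic (14 clones) had 9 lower and 5 higher, with a median of -0.15 (-0.20 with 13 arrays). Its clone farthest from 0 was LMAN1, a cargo receptor between endoplasmic reticulum and Golgi, at -0.52 (adjusted p = 0.439; -0.71 with 13 arrays, adjusted p = 0.465), with 2.76 to 3.51 in L-HE and 3.26 to 4.41 in L-LE. ARFG3 and BET1, which act in transport to and from the Golgi, had -0.33 and -0.30.

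**Figure D5:**
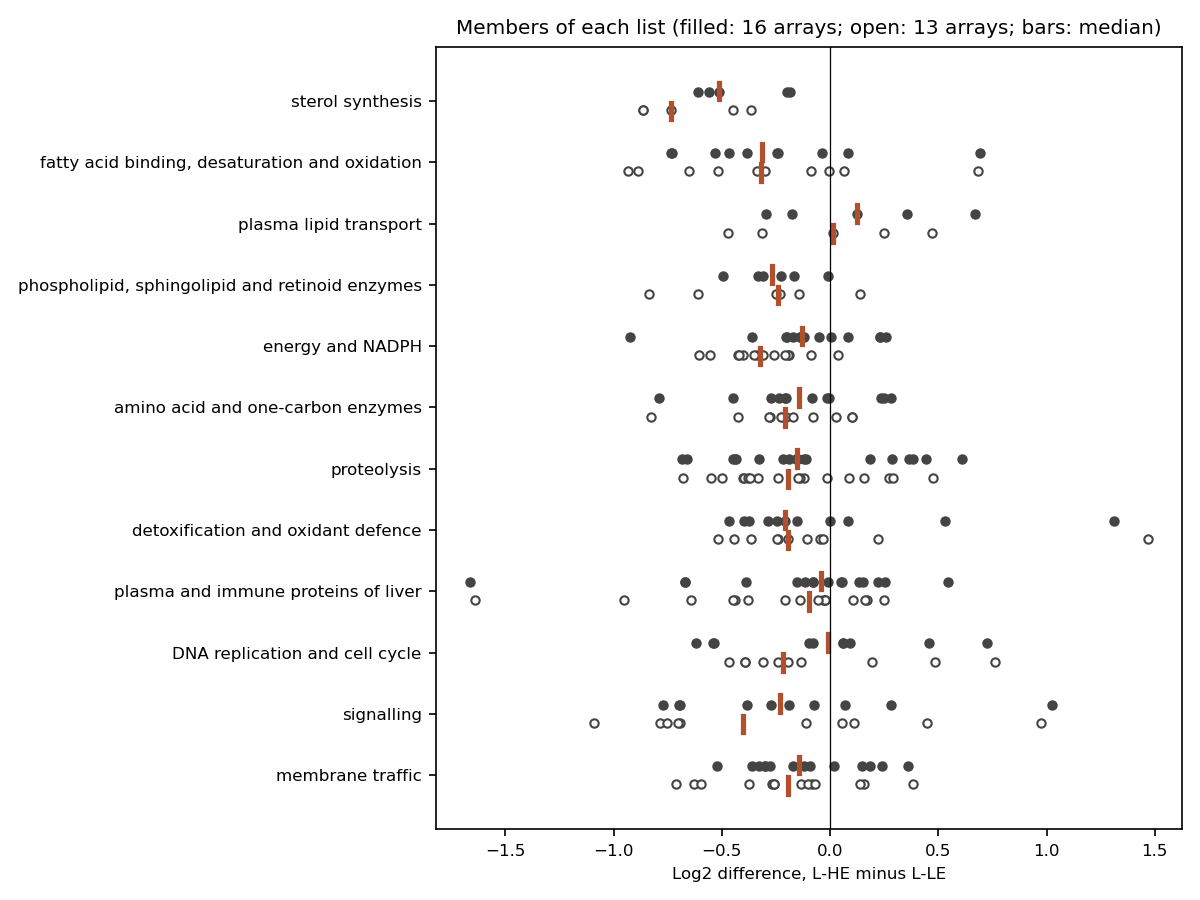
Log2 difference between L-HE and L-LE of each clone of the 12 lists, with 16 arrays (filled) and 13 arrays (open) and red bars for the median. The lowest median belongs to sterol synthesis, at -0.51 and -0.73, plasma lipid transport has the highest with 16 arrays, at 0.12, and the point at the far left is LECT2, at -1.66.

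Outside the lists, the named clones with the smallest p were as follows. Transmembrane protein 11 (TMM11), a protein of the inner mitochondrial membrane, had 2.60, 3.16 and 3.68 in L-HE and 3.56, 4.0 and 4.76 in L-LE. A single L-HE liver, on membrane 34, reached the L-LE range. The difference was -0.88 (standard error 0.182, 1.84-fold lower, adjusted p = 0.251), -0.75 with 13 arrays and -0.88 in the fat line. Nucleoporin NUP53, part of the nuclear pore, had 4.13, 4.62 and 5.12 in L-HE and 4.83, 5.42 and 6.07 in L-LE, a difference of -0.81 (adjusted p = 0.281; -0.96 with 13 arrays, adjusted p = 0.262). The mitochondrial ribosomal protein RM40 had 2.62, 3.18 and 3.42 in L-HE and 3.24, 3.80 and 4.65 in L-LE. L-LE membrane 20 was the only one of its group in the L-HE range. Its difference was -0.74 (-0.87 with 13 arrays), and another protein of that ribosome, RM01, had 0.44 (0.21 with 13 arrays).

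A clone matched to a hypothetical protein (Y041) had a difference of -0.97 (adjusted p = 0.251; -0.71 with 13 arrays), with 2.14 to 2.90 in L-HE and 2.82 to 4.32 in L-LE. The dim clones of the chaperonin-like MKKS and of LRC59, a ribosome-binding membrane protein, had -0.53 each, and LHX3, a homeobox factor known from the pituitary, had -0.50 (-0.37, -0.39 and -0.46 with 13 arrays). Higher values in L-HE were found for MMP16, a membrane-bound metalloproteinase, with 1.80, 2.57 and 3.27 in L-HE and 0.58, 1.71 and 2.17 in L-LE, a difference of 0.95 (adjusted p = 0.377; 0.89 with 13 arrays). Band 3 anion exchanger (B3AT), the major membrane protein of red blood cells, had a difference of 0.71 (0.51 with 13 arrays), while the other 2 red cell markers were lower in L-HE. Its levels were 2.58 to 3.59 in L-HE and 1.54 to 3.23 in L-LE.

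Of the clones without a name, 3 more were picked for their p. The clone tcbk0042.p.14 had 3.33, 3.57 and 3.70 in L-HE and 1.60, 2.48 and 3.47 in L-LE. L-LE membranes 60 and 66 reached the L-HE range, and the difference was 1.04 (adjusted p = 0.251; 0.72 with 13 arrays). The clone 1RT48C18_C_B09 had -0.99 (adjusted p = 0.251; -0.86 with 13 arrays) and 1RT32D09_B_B05 had -0.62 (adjusted p = 0.281; -0.49 with 13 arrays).

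Whether the lean line responded differently from the fat line was tested by the interaction of line and diet over 31 arrays. It left out the F-HE array on membrane 59, whose median Spearman correlation with all other arrays was 0.161. F-HE membrane 65 (0.842, interquartile range 1.75) and F-LE membrane 62 (0.828, interquartile range 1.62) were kept. L-LE membranes 53, 56 and 68 (0.855 to 0.896) were kept too. A fit without the fat-line membranes 62 and 65 together was not tested. No clone of 7759 passed (0%) by limma, with 355 at an unadjusted p under 0.05 where 388 are given by that rate. Among named clones the smallest p belonged to LECT2, DKC1, URIC, BHMT and PP2C1. DKC1, a pseudouridine synthase, had a diet difference of 0.44 in the lean line and -0.27 in the fat line, and uricase (URIC), which degrades uric acid, 0.20 and -0.33. Protein phosphatase PP2C1 had -0.31 in the lean line and 0.27 in the fat line. None of these 5 interactions had an adjusted p below 0.811. In the same fit of 31 arrays the diet difference of the lean line passed for 2 clones, with 1006 under an unadjusted p of 0.05, and that of the fat line (15 arrays) for 0, with 234. Whether these numbers differ between the lines was not tested. The median standard error of a difference in the lean line was 0.184 with 16 arrays, and the 95% interval reached a median of 0.384 to either side of it.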

How the data were processed

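Liver RNA was hybridized to single-colour nylon cDNA arrays, 1 liver per array. The authors deposited log10 values: they read the radioactivity of each spot with AGScan, dropped spots with too little DNA, corrected for spot DNA with a vector oligonucleotide and divided by the array median. An excluded spot stands as a bare 0 and was treated as missing (41354 cells). The 17 zeros with decimals were kept. According to the methods, 6 of the 9 livers of a group were hybridized. Which ones is not stated, and all 8 labelled livers were used.

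On the log2 scale, limma 3.58.1 (lmFit and eBayes, R 4.3.3) was run with 1 mean per group over clones with at least 5 values in both groups, or at least 3 in L-LE without membranes 53, 56 and 68. A clone was called at a p, adjusted by Benjamini-Hochberg, below 0.15. The study allowed the same rate of false discoveries, but with another test and over both lines. For its diet and line effects it also required an analysis of variance at an unadjusted p under 0.01. Single values had two-sided exact permutation tests over 16 livers. Both took each liver as a replicate, while the diet was given to tanks. The interaction used 4 group means. The number of arrays limits the precision. The fits were tested on simulated data with independent normal noise. These data held neither the wider spread of L-LE membranes 53, 56 and 68 nor any tank effect.

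Named were the 15 lower and 10 higher clones with the smallest p among those with a Swiss-Prot name in the study's additional lists, all sterol and fatty acid clones, up to 3 others of each further list, 2 unnamed clones per direction, proteins with 2 clones (AATM, FTHFD, SAM68 and TENA, not described, had differences between -0.45 and 0.29) and 5 of the interaction. Members, lists and the removal of the 3 arrays were chosen with earlier results of these data known, and the named clones had been picked by the study on its own livers, so that neither is independent evidence. Alternatives were other array sets, thresholds, normalizations, filters, moderation, array weights, tank and membrane terms and each array left out.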

Additional observations from a re-analysis of the deposited data

Results flagged for a closer look

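Dixon's criterion was applied to 164 groups, each the L-HE or L-LE values of a clone named by rule or of an array measure. Chance marks about 1 in 20 groups, or 8.2. In 14 groups, all of clone levels, the highest or lowest liver lay far from the others. L-HE membrane 17 gave 4 of them, the highest level of apolipoprotein APA11 (4.35, others 3.42 to 3.85) and the lowest of cytochrome CP2J2 (2.45, others 3.57 to 4.29), kinase MAPK5 (-0.25, others 0.50 to 1.14) and ketoacyl reductase FABG (0.064, others 0.66 to 1.14). The other L-HE livers so marked were membrane 34, with the highest level of tcba0009.c.23 (3.81, others 0.21 to 1.88) and the lowest of DDAH1, which degrades methylated arginine (1.46, others 1.70 to 1.89), and membrane 23, with the lowest of folate enzyme FTHFD in clone tcbk0009.o.05 (-1.50, others -0.03 to 1.16).

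Among L-LE livers, membrane 19 had the highest level of MSRA (1.63, others 0.75 to 0.90) and the lowest of ITIH2 in clone tcay0001.j.14 (4.25, others 4.77 to 5.21) and of FTHFD in tcbk0009.o.05 (-2.14, others 0.49 to 2.09). Membrane 56 had the highest level of the aminotransferase AATM in clone tcad0005.c.22 (2.72, others 0.36 to 1.42) and the lowest of ERG28 (-1.35, others -0.08 to 1.05). Membrane 53 had the lowest level of ECHA (3.82, others 4.29 to 4.69) and membrane 68 the highest of ACBP in tcbk0030.c.13 (-0.90, others -2.43 to -1.98).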

How the results depend on the processing

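The count of 2 called clones was 0 with all 32 arrays in the fit, 1 without L-LE membranes 53, 56 and 68, 10 after quantile normalization (9 lower and 1 higher, LECT2, NUP53, ACES, RM40, TMM11, GDF8 and FADS among them), 6 with weights per array (5 lower), 1 with tank as a random block, with means per tank, with membrane number as a covariate or at an adjusted p under 0.05, and 1 to 40 with each array left out. An analysis of variance with diet alone within the lean line, at the level of the study's own analysis of both lines (an unadjusted p under 0.01), gave 152, and 0 after Benjamini-Hochberg. The count was 2 with 31 arrays, which leave out F-HE membrane 59 (median correlation 0.161 with all other arrays). There tcba0009.c.23 and LECT2 both had a limma adjusted p of 0.0774. It was also 2 with renewed centring, with the other filters and with trended robust moderation. In settings chosen after seeing the data it was 1 without membrane 56, 53 or both and 4 without 53 and 68. The cause of these differences was not tested. With tank number as a replicate block it was 3, although the numbers do not pair the tanks (correlation of same-numbered tanks 0.261, -0.163 and -0.237).

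Without the 3 arrays the count of 1 was 12 with weights per array (11 lower, 10 of them named), 0 with means per tank or at an adjusted p under 0.05, and 0 to 14 with each array left out (14 without L-LE membrane 45, 11 of them named, with ACBP, PI52B, ERG28, KIF2A and NUP53 among those also called with weights, 7 without L-LE membrane 20, 5 without L-HE membrane 18). With tank number as a replicate block it was 1, another clone. The interaction count of 0 stayed at 0 in every other setting tried (32 arrays, without the 3 arrays, tank as a random block, an adjusted p under 0.05) and was 0 to 1 with each array left out.

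The call of tcba0009.c.23 held without any 1 array (adjusted p from 0.0107 to 0.102) and was lost with 32 arrays (0.318), with 13 (0.162) and by analysis of variance (0.25). That of LECT2 was lost with tank as a random block (adjusted p = 0.284), means per tank (0.561), the membrane covariate (0.906) and 32 arrays (0.318). Of the differences of the 78 clones named by rule, 9 clones changed sign in some setting. Without the 3 arrays these were FTHFD 1RT110O02_C_H01 (0.099), NLTP (0.063), BHMT (-0.0798), FABD (-0.0058) and ATPG tcbk0029.g.03 (-0.20), with weights per array FTHFD 1RT110O02_C_H01 (0.019), BHMT (-0.0062) and ATPG (-0.165), with the membrane covariate NLTP (0.084), FTHFD tcbk0009.o.05 (0.071) and ATPG (-0.039), and after quantile normalization ACBP tcbk0030.c.13 (0.0065) and DCE1 (0.042). With each array left out, NLTP ran from -0.11 to 0.036, ITIH2 tcba0014.a.04 from -0.24 to 0.051 and ATPG from -0.0013 to 0.16. Medians of 6 lists crossed 0 in some setting: DNA replication and cell cycle after quantile normalization (0.019) and with an array left out (-0.10 to 0.020), plasma and immune proteins with an array left out (-0.087 to 0.023), plasma lipid transport with weights per array (-0.0035), hepatocyte markers without the 3 arrays (-0.054), with weights per array (-0.044) and after quantile normalization (-0.000146), muscle markers with means per tank (0.0097) and with an array left out (-0.14 to 0.031) and red blood cell markers with the dimmest clones left out (0.14).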
